A study of Mus musculus with 3 samples.

Results

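The Adam metalloprotease genes are the 33 protein-coding genes of the GENCODE vM21 annotation whose symbol is Adam followed by a digit, out of 21951 protein-coding genes, with the secreted Adamts relatives left out. A listed small RNA was counted for an Adam gene when it matched an annotated transcript of that gene exactly and over its whole length, on the chromosome given for it, sense and antisense apart. Small RNAs were sequenced from immunoprecipitates of C57BL/6 mouse testis in 3 libraries, 1 per group: Mili from testis lacking Tdrd1 at 15 days after birth, Tdrd1 from adult testis, and Mili from adult wild-type testis. Mili belongs to the Piwi family, whose members bind the piRNAs of germ cells, and Tdrd1 is a Tudor-domain partner of Mili. Age differed along with genotype between the knockout and the wild-type library. The deposited list names each of 2219118 distinct sequences once, with no library and no read number, so knockout could not be set against wild type, and every value below describes the 3 libraries pooled, with each distinct sequence weighing 1.

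ADAM proteins are membrane-anchored proteins with a metalloprotease domain and a disintegrin domain. Some, the sheddases, cut the outer part of other membrane proteins from the cell surface, among them the Notch receptors and the precursor of tumour necrosis factor. Others have lost the zinc-binding residues of the protease and act in adhesion, and many of those in the mouse are made in the testis, where they reach the sperm surface and take part in the passage of sperm into the oviduct and in contact with the egg. A further few act at synapses and along nerves as receptors for Lgi proteins. Messenger RNAs of germ cells can themselves be cut into piRNAs, which usually begin with U.

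The sequences below show what the list holds for these genes. They stand at the 5′ end with most listed 3′ ends in each of the 5 Adam genes with most sense sequences, followed by Adam2, Adam3 and Adam5, which were added after their values were seen because A was their first base as often as U or more often. Where several 5′ ends had as many 3′ ends the first along the transcript was taken, and of each set the sequence of middle length is printed. Capitals mark the first base, which is C in the Adam17 sequence and G in that of Adam5, and T stands for U as in the list.
Adam10: Tggcttgcaaactggacagcaacagcat
Adam17: Cgagtgaagagacgagctgaacctaacc
Adam1a: Tgaagatgagaagctgaatgaggtaat
Adam22: Tgagaattaggaatacagagtggtaa
Adam30: Tacagatagaaggcaaggcgcgtgtt
Adam2: Aagggaagatgtgtgacaagaactat
Adam3: Acagactgggactagagatgacac
Adam5: Gatgtggtctgtagaaagtcggt
On mouse build mm9 the Adam10 sequence lies at chr9:70626662-70626689 on the plus strand and in the 3′ untranslated region, and its 5′ end was listed with 5 3′ ends, at lengths from 26 to 30 nt. The Adam22 sequence lies at chr5:8073899-8073924 on the minus strand, also in the 3′ untranslated region. The other 6 lie in coding sequence. They are at chr12:21353253-21353280 (minus strand) for Adam17, chr5:121975743-121975769 (minus) for Adam1a, chr3:97964969-97964994 (plus) for Adam30, chr14:66675323-66675348 (minus) for Adam2, chr8:25804680-25804703 (minus) for Adam3 and chr8:25896767-25896789 (minus) for Adam5.

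The Adam genes as a whole were not a rich source of small RNAs, and a few members held most of what was listed. Together 801 distinct sense and 22 antisense sequences matched them. Of the 33 genes, 22 (66.7%) had at least 1 sense sequence, against 71.0% of all protein-coding genes, and 7 (21.2%) had at least 10 sense sequences per kb of merged exon, against 30.0% of all protein-coding genes. The median Adam gene had 1.08 sense sequences per kb, and the median protein-coding gene 2.89. Adam10 and Adam17 alone held 318 of the 801 sense sequences (39.7%). Of the 801, 0 lay in the 100 windows of 20000 bp that held most listed sequences. The same share over all protein-coding genes was not computed, so this 0 does not set the Adam genes apart. In immunoprecipitates from a whole tissue, fewer cells of a type and fewer bound small RNAs per cell cannot be told apart. These levels therefore say nothing of which testis cell gave the small RNAs. Among marker genes, the germ cell sets had the higher medians, with 53.8 sense sequences per kb over 5 spermatogonial, 75.1 over 5 meiotic and 14.4 over 5 spermatid genes. The medians were 0.323 over 5 Sertoli, 0.208 over 5 Leydig and 0 over 3 immune genes. The Leydig genes Star and Insl3 had 19.0 and 11.2 per kb and the T cell gene Cd3e had 12 sequences, with Rhox5, Gata1, Cyp17a1, Hsd3b6, Ptprc and Adgre1 at 0.

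**Figure D1:**
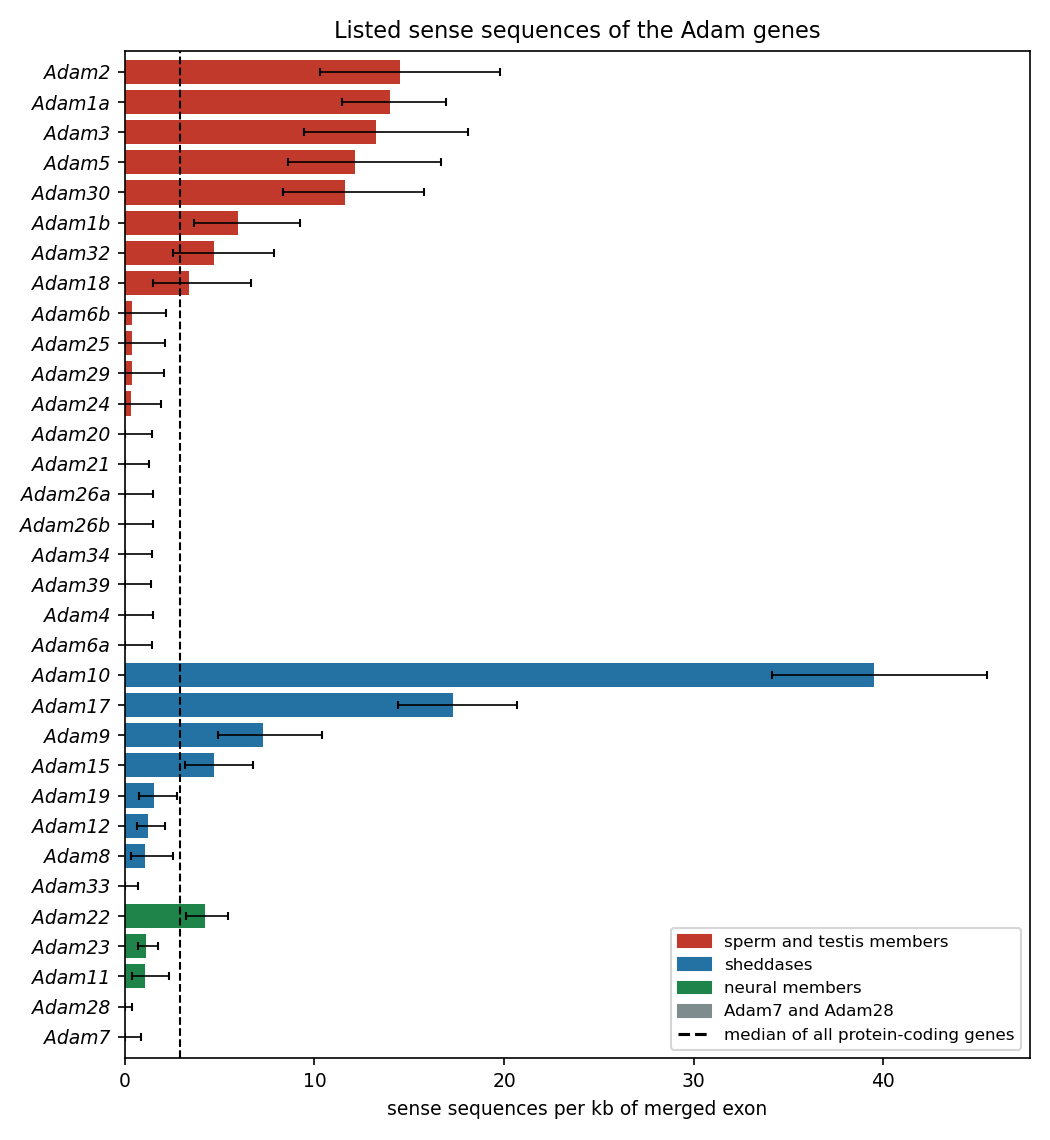
Sense sequences per kb of merged exon for the 33 Adam genes, grouped by role, with exact Poisson 95% intervals that cover counting error only; the dashed line is the median of all protein-coding genes, 2.89 per kb. Adam10 stands highest at 39.5 per kb, 8 sperm and testis members lie above the line, and 11 members are at 0. Among the 8 is Adam1a, whose 9 own sequences give 1.20 per kb of merged exon, below the line. That length includes the exons shared with Gm42878. On the transcript Adam1a-201 alone the 9 give 2.57 per kb, and all 15 sequences matched there give 4.29 per kb, above the line.

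Adam10 had more sense sequences per kb than any other sheddase. Adam10, the enzyme that makes the first activating cut in Notch receptors, had 194 sense sequences between 70551147 and 70627995 of chromosome 9, or 39.5 per kb (exact Poisson 95% interval 34.1 to 45.5), a density that 93.3% of protein-coding genes did not exceed. Adam17, which releases tumour necrosis factor and ligands of the epidermal growth factor receptor, had 124, or 17.3 per kb (14.4 to 20.7), between 21329700 and 21379399 of chromosome 12. The intervals of these genes do not overlap each other or those of any other sheddase. Adam9, which also sheds growth factor precursors, had 30 (7.29 per kb, 4.92 to 10.4), and Adam15, found in many epithelia and blood vessels, had 29 (4.72 per kb, 3.16 to 6.78), with intervals that overlap. Adam19, known from heart development, had 11, Adam12, known from muscle and placenta, had 13, and Adam8, known from white blood cells, had 5, at 1.08 to 1.55 per kb. Adam33 had no sense sequence in the list.

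The sheddase sequences came mainly from 3′ untranslated regions and began with U. Of 403 sequences that matched coding transcripts, 67.7% had their midpoint in a 3′ untranslated region, a part that makes up 45.0% of those transcripts by length, and 30.8% lay in coding sequence. U was first in 286 of 406 sequences (70.4%, exact Clopper-Pearson 95% interval 65.7 to 74.8%), as against 67.7% in all other protein-coding genes. In Adam10, U was first in 79.9% (73.6 to 85.3%) and 134 of 194 sequences lay in the 3′ untranslated region of the longest matched transcript. In Adam17, U was first in 61.3% (52.1 to 69.9%), and 63 sequences lay in coding sequence and 56 in the 3′ untranslated region. All 11 sequences of Adam19 lay in its 3′ untranslated region. The richest stretch of 100 nt in the Adam10 transcript held 30 sequences and lay at positions 3532 to 3631, in the 3′ untranslated region. Without Adam10 the share of U first among the sheddases was 61.8%, below the interval with it.

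The sperm and testis members split into a set with clear coverage and a set with almost none. Of these 20 genes 12 (60.0%) had a sense sequence, against 71.0% of all protein-coding genes, and 5 (25%) reached 10 per kb, against 30.0%. Both shares are near those of all protein-coding genes, and 1 of the 5, Adam1a, reached 10 per kb through shared sequences. The median was 0.374 per kb. The fertilin beta gene Adam2, whose protein pairs with the Adam1 proteins and is needed for sperm to pass into the oviduct, had 39 sense sequences (14.5 per kb, 10.3 to 19.8). Adam3, also called cyritestin, which sperm need for the same passage and for binding the egg coat, had 39 (13.3 per kb, 9.43 to 18.1). Adam5, another gene of this group without catalytic activity, had 38 (12.1 per kb, 8.59 to 16.7). Adam30, whose coding sequence is 1 exon, had 41 (11.6 per kb, 8.33 to 15.8). The intervals of Adam2, Adam3, Adam5 and Adam30 overlap, so their order is not resolved. Adam1b, the form of fertilin alpha found on sperm, had 20 (5.99 per kb), Adam32 had 14 (4.68 per kb) and Adam18 had 8 (3.39 per kb).

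Most of the sequences counted for Adam1a, the form of fertilin alpha that acts in the endoplasmic reticulum, also matched a neighbour. Of its 105 sense sequences 96 also matched Gm42878, an annotated protein-coding gene that shares exons with it, and 90 matched Mapkapk5, a protein kinase gene. Gm42878 was taken as a readthrough of Mapkapk5, so a match to it alone does not place a sequence outside Adam1a. All 96 matched the 15-exon transcript Adam1a-202, and 99.4% of its 27-nt words occur in Gm42878. The transcript Adam1a-201, which is 1 exon of 3496 nt, matched 15 sequences (4.29 per kb of that transcript). Of these, 6 were shared and 9 its own (2.57 per kb). The density of Adam1a over merged exons (95% interval 11.4 to 16.9 per kb) therefore rests on shared exons, and the sequence printed for Adam1a is a shared one. Counted by sequences that match no other gene, 6 rather than 7 Adam genes reached 10 per kb, and Adam1a was the one that did not.

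The members with 0 or 1 sequence were mostly of 1 coding exon. Adam1a is left out here, since its transcript with several exons matched shared sequences alone. The other 5 sperm and testis members with several coding exons all had sense sequences, with a median of 12.1 per kb. Of the 14 whose coding sequence is 1 exon, 8 had none, 4 had 1 each and 2 (Adam30 and Adam1b) had more. The 4 with 1 sequence were Adam6b, Adam24 (also known as testase 1), Adam25 (testase 2) and Adam29. Those with none were Adam4, Adam6a, Adam20, Adam21, Adam26a, Adam26b, Adam34 and Adam39. On chromosome 8, which holds 13 Adam genes, the neighbours Adam18, Adam3, Adam5, Adam32 and Adam9 had 129 sense sequences between 25721490 and 26127320, and the other 8, all of 1 coding exon, had 3.

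Many of these genes share sequence with a copy. In 9 of the 12 genes of 1 coding exon with at most 1 sequence, 37.7 to 59.2% of the 27-nt words of the transcript occur in another annotated gene, and how the list treats sequences with several genome positions is not given in the sources. In Adam21, Adam24 and Adam29 the share was 0 to 0.384%, and they too had 0 or 1 sequence. Adam1a and Adam1b shared 0 listed sequences, while 33.6% of the words of Adam1b also occur in Adam1a. For Adam6a and Adam6b, with 0 and 1 sequence, and for Adam26a and Adam26b, with 0 each, sharing could not be seen. The part of sharing in the low counts was not tested. A sequence across an exon junction has no unbroken genome position, and 3 of the 801 sense sequences crossed one. On the longest coding transcript 22.5% of 27-nt starts cross a junction in Adam32 and 0% in Adam30.

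The neural members, which lack catalytic activity, lay on both sides of the median of all protein-coding genes, with Adam22 above it. Adam22, a receptor for Lgi1 at synapses, had 61 (4.25 per kb, 3.25 to 5.46), Adam23 had 20 (1.12 per kb) and Adam11 had 6 (1.06 per kb). U was first in 86.9% (75.8 to 94.2%) in Adam22 and in 90.0% (68.3 to 98.8%) in Adam23. In Adam22, 48 of 61 sequences lay in the 3′ untranslated region, which makes up 66.9% of the matched transcripts. Adam7, an epididymal gene, and Adam28, known from lymphocytes, had 0.

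**Figure D2:**
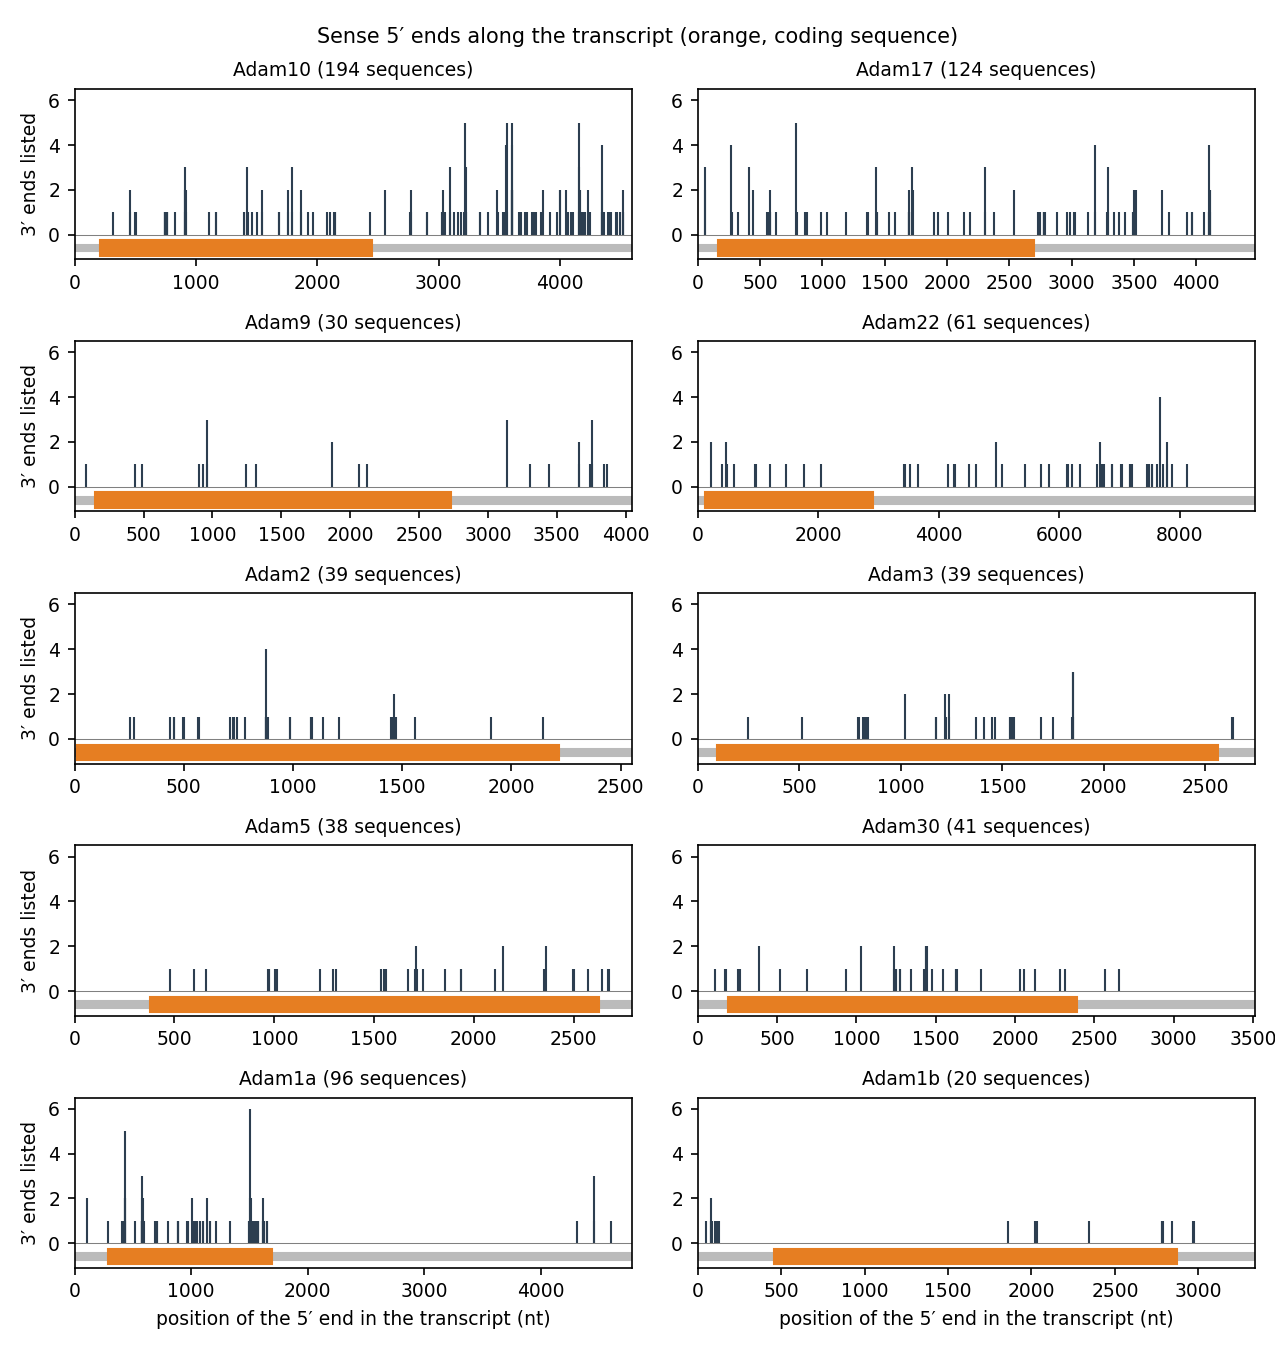
Each line stands at a sense 5′ end along the transcript with most matches (position in nt), and its height is the number of listed 3′ ends at that 5′ end; the orange bar is the coding sequence. Adam10 and Adam22 are covered mostly downstream of the coding sequence, Adam2, Adam3 and Adam5 within it, Adam1b has 10 of its 20 sequences within 100 nt near its start, and the 96 sequences on Adam1a-202 are those shared with Gm42878.

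As groups, the sperm and testis members had U as first base less often than the sheddases or the neural members, but not every member followed its group. Leaving out the 96 shared sequences of Adam1a, a choice made after seeing the data, U was first in 39.0% (32.2 to 46.1%) and A in 44.5% (37.5 to 51.7%) of their 200 sequences of 24 to 32 nt. In all other protein-coding genes U was first in 67.7% and A in 15.2%. With the shared sequences U was first in 43.6% (37.9 to 49.4%). The intervals of the sperm and testis members and of the sheddases (65.7 to 74.8%) do not overlap. Without Adam10 the sheddase share was 61.8%. In the sheddase Adam15 U was first in 44.8% and A in 34.5% of 29 sequences, close to the 44.7% with U first in Adam2, and in Adam9 A was first in 30.0% of 30. Of the 10283 protein-coding genes with at least 14 such sequences, 95.8% had an A share at or below that of Adam15 and 92.1% at or below that of Adam9. Sequences of 1 transcript are not independent of each other, so the intervals are too narrow, and no test over samples was possible.

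The members with most A were Adam32, Adam5, Adam3 and Adam2. In Adam5, A was first in 24 of 35 sequences of 24 to 32 nt and U in 6. In Adam32, A was first in 10 of 14 (interval of the share 41.9 to 91.6%) and U in 1, and these 14 only just reach the number required below. In Adam3, A was first in 18 of 36 and U in 11, and in Adam2 A and U were first in 17 of 38 each. Of the 13 Adam genes with at least 14 such sequences, A was the most frequent first base in 3 (23.1%), namely Adam3, Adam5 and Adam32. The same held for 225 of 10283 protein-coding genes with as many sequences (2.19%), a count chosen after the Adam values had been seen. Of those genes 99.9% had an A share at or below that of Adam5, and 98.8% at or below that of Adam2. U remained the more frequent first base in Adam30 (22 of 40, against 10 with A), in Adam1b (9 of 17, against 5) and in Adam18 (6 of 8, against 1).

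**Figure D3:**
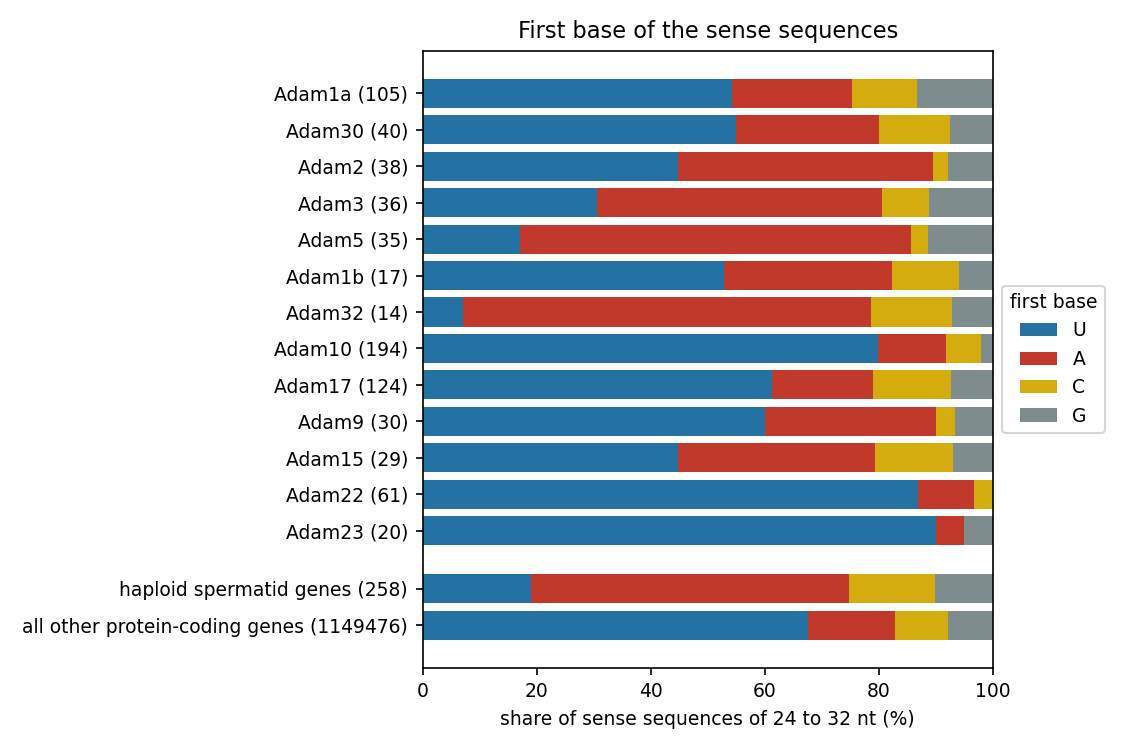
Share of U, A, C and G as first base among sense sequences of 24 to 32 nt, with their number in parentheses, for the 13 Adam genes with at least 14, 10 haploid spermatid genes together, and all other protein-coding genes. A leads in Adam3, Adam5, Adam32 and the spermatid genes, and U in Adam10, Adam22 and Adam23.

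Across the longest coding transcripts of the 33 genes, U made up 20.5% (Adam11) to 30.3% (Adam29) and A 19.5% (Adam11) to 31.8% (Adam34). A made up 30.1% of the longest Adam5 transcript and 29.5% of that of Adam3, against 28.8% of that of Adam10, and U made up 26.8% in Adam5, 24.9% in Adam3 and 29.1% in Adam10. The part of base composition in the first bases was not tested. The sperm and testis sequences lay mostly in coding sequence (82.6% without the shared ones), near the 77.0% expected. On the longest matched transcript all 39 of Adam2 and all 14 of Adam32 lay there. In Adam1b only 8 of 20 did, and 10 lay in the 5′ untranslated region. In Adam3 37 of 39 did, but 67.5% when split over its matched transcripts. Within coding sequence alone, U was first in 38.4% of 138 sperm and testis sequences without the shared ones (30.3 to 47.1%). With the shared ones it was first in 43.4% of 226 (36.8 to 50.1%). The share was 55.7% of 79 sheddase sequences (44.1 to 66.9%) and 59.8% in all other protein-coding genes. Both sperm and testis intervals overlap that of the sheddases, more so with the shared sequences, and lie below the value of the other genes. In 3′ untranslated regions alone, U was first in 82.9% of 304 Adam sequences (78.2 to 87.0%) and 75.1% of those of other genes. Of these 304, 242 were of sheddases, 59 of neural members and only 3 of sperm and testis members, the shared sequences included.

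As a group the sperm and testis members had shorter sequences, and not only where A led. The sperm and testis sequences without the shared ones measured 26.1 ± 1.64 nt (mean and SD over 212 sequences), the sheddase sequences 27.5 ± 1.51 nt (406 sequences), the neural ones 27.3 ± 1.40 nt (87 sequences) and those of all other protein-coding genes 27.4 ± 1.60 nt. The most common length was 26 nt in the sperm and testis members and in the neural members, and 27 nt in the sheddases and the other genes. Sequences of 29 to 32 nt made up 6.60% of the sperm and testis set, 23.6% of the sheddase set and 23.3% of the other genes. Sequences under 24 nt made up 5.66%, 0% and 0.776% of the same sets. The means were 25.8 nt in Adam32, 25.9 nt in Adam3, 26.0 nt in Adam5, 26.1 nt in Adam2 and 25.9 nt in Adam1b, and at most 0.418% of the 10283 genes lay at or below any of these 5. U led in Adam1b, and likewise in Adam18 (26.0 nt over 8 sequences) and Adam30 (26.5 nt). Of the 10283 genes 1.89% lay at or below Adam30. In Adam10 the mean was 27.8 nt, at or above 91.5% of those genes. The labels give a gel elution of about 28 to 30 nt, and the most common lengths, 26 and 27 nt, lie below that range. The list does not say which library a sequence came from, and the part of the library in the lengths was not tested.

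**Figure D4:**
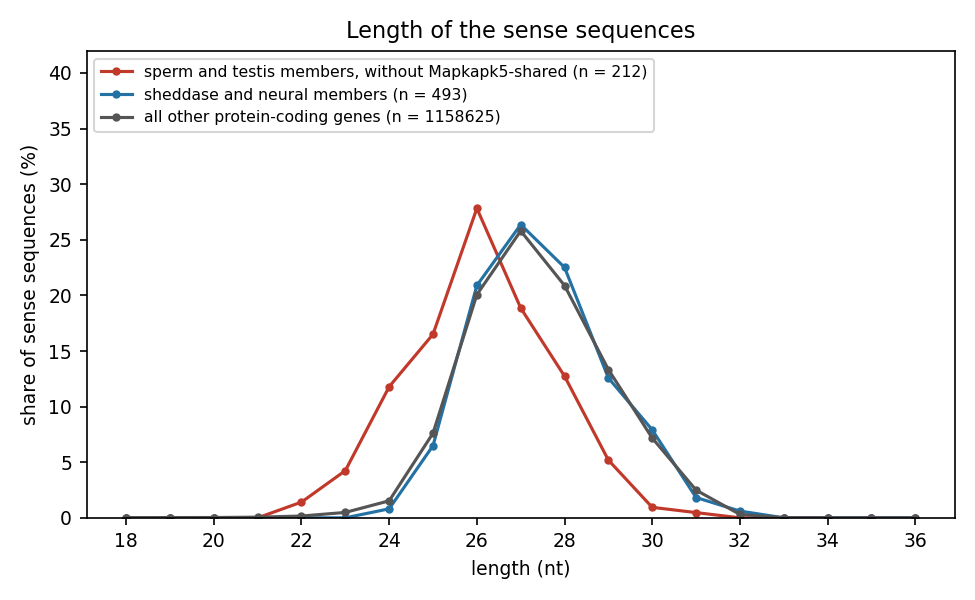
Share of sense sequences at each length (nt) for the sperm and testis members without the sequences shared with Mapkapk5 or Gm42878, the sheddase and neural members together, and all other protein-coding genes. The sperm and testis curve peaks at 26 nt, to the left of the others, which peak at 27 nt. The neural members alone also had 26 nt as most common length.

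Genes of haploid spermatids, the cells that become sperm, had sequences of the same mean length and a lower share with U first. Over 10 such genes, among them Prm2 and Tnp1, whose proteins package sperm DNA, and Odf1, of the outer dense fibres of the tail, A was first in 55.8% (49.5 to 62.0%) and U in 19.0% (14.4 to 24.3%) of 258 sequences, with a mean length of 26.1 ± 1.96 nt. A was the most frequent first base in all 5 of them with at least 14 sequences (Akap4, Odf1, Odf2, Prm2 and Tnp1), but in 0 of 5 meiotic and 0 of 5 spermatogonial marker genes. It was so in 0 of 6 genes for chaperones and partners of sperm ADAM proteins and in 0 of 4 Adamts genes with as many sequences. Ldhc, the sperm lactate dehydrogenase gene among the meiotic markers, had short sequences (26.3 nt on average) with U first in 58.0%. Across the 225 genes led by A the median mean length was 27.1 nt, and 27.3 nt across the other 10058. These genes share libraries with the Adam genes, and the difference between the lists was not tested.

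**Figure D5:**
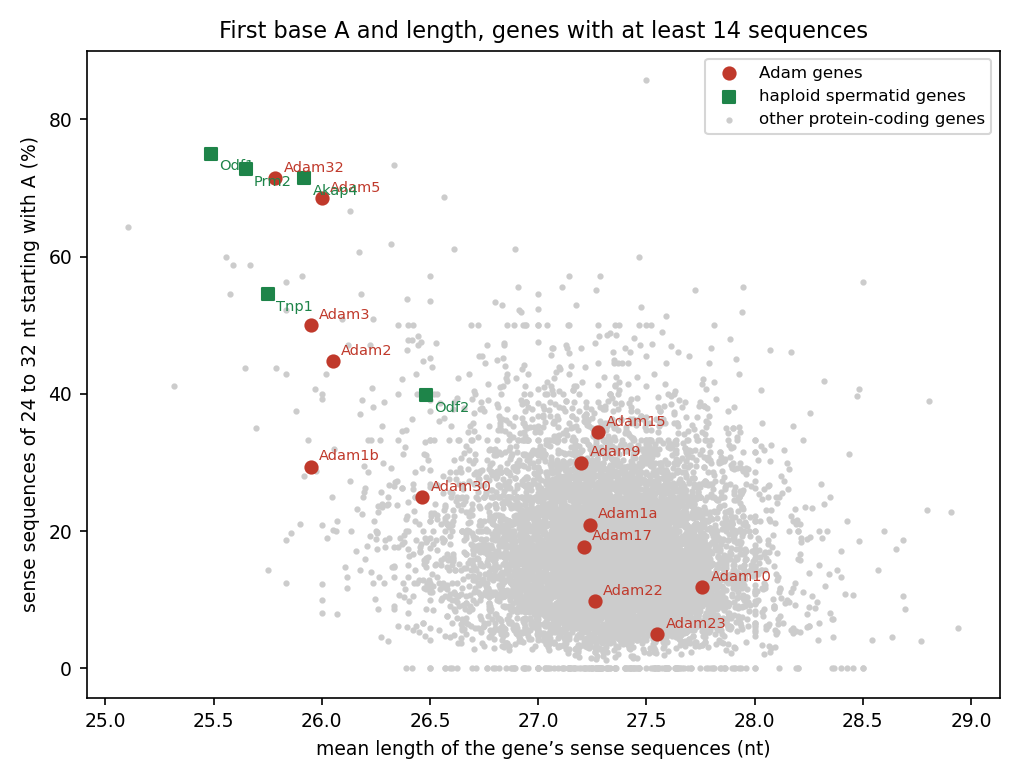
Mean length of a gene's sense sequences (nt) and share of its sequences of 24 to 32 nt that start with A (%), for the 10283 protein-coding genes with at least 14 such sequences. Adam2, Adam3, Adam5 and Adam32 lie at the upper left beside Odf1, Prm2, Akap4 and Tnp1, and Adam10, Adam17, Adam22 and Adam23 lie within the mass of other genes.

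Over all Adam sequences, U after the 3′ end and A at position 10 were close to their backgrounds. When piRNAs are cut head to tail from a precursor, the base after the 3′ end is often U. It was U after 24.7% (21.8 to 27.9%) of the 801 sense sequences, and 26.8% on average at the next 9 positions, which ranged from 24.3 to 28.5%. In Adam10 it was U after 73 of 194 sequences (37.6%) and in Adam5 after 3 of 38. The next positions were not computed for these genes alone, so neither share has a local background. Over all sheddases, Adam10 included, it was U after 30.3%. At the next 9 positions that share was 30.2% on average, with a range of 27.1 to 35.0%. A 5′ end followed directly on a 3′ end in 14 pairs of ends, against 12.2 ± 3.06 pairs at distances of 2 to 20 nt (mean and SD over distances), with a highest value of 17. A at position 10, which secondary piRNAs of the amplification cycle carry, was found in 32.7% (29.4 to 36.1%), as against 32.1% in other protein-coding genes.

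Ends varied more than they repeated. The 801 sequences had 638 different 5′ ends, 534 of them with a single 3′ end and 35 with 3 or more, and the highest number was 6, in Adam1a. U was first at 25 of the 35 5′ ends with 3 or more 3′ ends (71.4%) and at 54.7% of those with 1. Listed sequences that matched no exon differed in share between genes. Between the first and last sense sequence of Adam3 (46226 bp) and of Adam5 (85681 bp) there were 0, and for Adam10 23 of 217 matched no exon over 76849 bp. The shares were higher in Adam12, with 50 of 64 over 302183 bp, in Adam23, with 15 of 35 over 148308 bp, and in Adam11, with 3 of 10 over 7587 bp. The list gives no strand for sequences without an exon match, and they were not shown to lie in introns. The same shares over other genes were not computed.

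Antisense sequences were rare and formed no pairs at the offset of the amplification cycle. At least 1 antisense sequence matched 8 of 33 Adam genes (24.2%), against 30.0% of all protein-coding genes. Adam17 had 11, of which 6 lay between 21329385 and 21329421 of chromosome 12 and matched Iah1, a gene of the opposite strand, in the sense direction. Adam15 had 3, Adam1a and Adam22 had 2 each, and Adam2, Adam3, Adam30 and Adam11 had 1 each. U was first in 14 of the 22. Of the antisense sequences 4 overlapped a sense sequence of the same gene, and 0 did so by an overlap of 10 nt between the 5′ ends. That overlap is the offset of the amplification cycle, and with only 4 overlapping sequences the 0 cannot decide whether such pairs form.

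Among genes that work with ADAM proteins, the chaperones and partners of the sperm members had the highest median. For all the counts in this paragraph, the background is 71.0% of all protein-coding genes with a sense sequence and 30.0% at 10 per kb. The median over all protein-coding genes was 2.89 per kb. Of 14 chaperones and partners of sperm ADAM proteins 13 had sense sequences and 6 reached 10 per kb (median 7.11 per kb, range 0 to 118). Tex101, a surface protein of germ cells that Adam3 needs, had 118 per kb, and the endoplasmic reticulum chaperones Calr and Canx had 105 and 82.0 per kb. Of 15 regulators of sheddases 13 had sequences and 2 reached 10 per kb (median 5.01 per kb), led by Tspan14, a tetraspanin that escorts Adam10, with 15.1, Pcsk7, a proprotein convertase, with 11.1, and Tspan33, another escort of Adam10, with 8.08. Of 14 substrates 12 had sequences and 1 reached 10 per kb (median 2.72 per kb): Notch2 had 13.4, Il6ra, the interleukin 6 receptor, 8.45, and the chemokine gene Cx3cl1 8.40. All 4 Lgi genes had sequences (median 0.565 per kb), with 8.12 in Lgi2, 0.873 in Lgi4 and 0.256 in Lgi3. Of the 19 Adamts genes, which encode secreted proteases of the matrix, 16 had sense sequences and 0 reached 10 per kb (median 0.641 per kb), with 4.39 in Adamts2, 3.86 in Adamts17 and 2.08 in Adamts4, and U was first in 80.0% (73.3 to 85.7%) of their 175 sequences.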

How the data were processed

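Small RNAs from Tdrd1 and Mili immunoprecipitates of mouse testis were sequenced in 3 libraries after elution of about 28 to 30 nt from a gel, per the labels. The deposited list holds no count and no normalised value. It gives each distinct sequence with a chromosome, start and end on NCBI mouse build 37, per the file headers, and mm9, per the submitters' processing notes. The sources used here do not give the aligner, the mismatches allowed or how several positions were treated. Depth per library is unknown.

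Each sequence was searched on both strands in all GENCODE vM21 transcripts (build GRCm38) starting from an identical stretch of 18 nt that was extended without mismatches, and only transcripts of the listed chromosome counted; 58.8% matched an exon. The search was tested on simulated data. Coordinates printed are those of the list. Parts of an mRNA were taken from the annotated coding sequence by the midpoint of the sequence, split equally over matched transcripts; counts for single genes use the longest matched coding transcript. Shares carry exact Clopper-Pearson and counts exact Poisson 95% intervals, covering counting error only. There were no replicates and no tests. The role of the zinc-binding motif was not analysed here. Genes were named by rule: the 10 Adam genes with most sense sequences per kb, the 5 with most antisense, all with none, pairs of close copies, and the 3 highest of each other list. The members and lists were chosen with earlier results of these data known. Python 3.11.15, numpy 2.4.6, scipy 1.17.1, pandas 2.3.3 and numba 0.67.0 were used.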

Additional observations from a re-analysis of the deposited data

How the results depend on the processing

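No paired analysis was possible because the design has 1 library per group and the list names no library. Of 27 alternative values 21 stayed within the counting interval or, for counts, within 1.5 times the count, and 6 moved by more; the cause was not tested. The share of Adam sequences with U first, 61.9%, was 58.3% with each 5′ end counted once, 56.0% without Adam10 and 54.6% without Adam10 and Adam17. The share among sperm and testis members, 43.6%, was 33.1% without Adam1a and Adam30, and that among sheddases, 70.4%, was 61.8% without Adam10. The share in 3′ untranslated regions, 44.6%, was 39.8% on the longest matched coding transcript. The median density of 1.08 per kb ranged from 1.06 to 1.84, the highest when starts across a junction were left out; it was held to the wide counting interval of the median gene, Adam8 with 5 sequences (0.350 to 2.52), although 1.84 is over 1.5 times 1.08. The number of genes with a sense sequence ranged from 21 to 22. Each 5′ end counted once left Adam30 under 10 per kb, so that 6 genes reached it. Leaving out Adam10 and Adam17 together, Adam1a and Adam30, Adam10 among the sheddases or the sequences shared with Mapkapk5, counting each sheddase 5′ end once, and counting starts without a junction were chosen after seeing the data. Genes with under 14 sequences were left out of the counts of genes led by A, and the share of Adam32, at 14, also has a wide interval.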
